A study of Homo sapiens with 2 samples.

Results

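Metallothioneins are small, cysteine-rich proteins that hold zinc and copper ions in the cytosol. The members are 9 genes of that zinc-buffering system: the metallothionein genes MT2A, MT1E, MT1X, MT1G, MT1F and MT1M, the gene of the zinc sensor MTF1, and the zinc transporter genes SLC30A1 and SLC39A10. They were chosen by gene symbol, and all 9 were found among the 63677 Ensembl gene IDs of the count tables. The libraries came from the human line MDA-MB-231, which was established from triple-negative breast cancer. In the CCE group, the cells had been treated with Carpesium cernuum extract (CCE), from a plant of the daisy family, at 1 µg/mL for 24 h. In the control group they are labelled control, and the treatment text stands on both samples, so it is not known here whether they received a vehicle. Each group is 1 RNA-seq library of 1 cell line, so there was no replicate check, no test between the conditions and no p-value.

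When free zinc rises, the transcription factor MTF1 binds metal response elements, short motifs in the promoters of metallothionein genes and of SLC30A1, and raises their transcription. SLC30A1 encodes the ZnT1 exporter, which moves zinc out of the cell, and SLC39A10 encodes the ZIP10 importer, which moves zinc in. In mouse cells MTF1 lowers transcription of the importer gene. Metallothionein transcripts also respond to copper, cadmium, oxidants and glucocorticoids, so they are read as a broad stress indicator.

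The CCE library held 34884501 counts on genes and the control library 5633569, so 1 count was worth 0.0287 CPM in the CCE library and 0.178 CPM in the control library. CPM is the count scaled to the library total on genes, and ratios are CCE over control with exact 95% Clopper-Pearson intervals, which hold counting error alone and take each read as an independent molecule, which PCR copies are not. In bulk RNA, fewer cells with a transcript and less of it per cell cannot be told apart. Markers of the line were present (VIM, CD44, EGFR, CAV1, AXL and LGALS1 at 160 to 1824 CPM in the CCE library and 335 to 3690 CPM in the control library). The estrogen receptor gene ESR1 had 0 counts in both libraries and the epithelial gene CDH1 had 1 in the CCE library and 0 in the control library. The progesterone receptor gene PGR had 6 counts (CCE) and 0 (control), while EPCAM, a further epithelial gene, had 265 counts (7.60 CPM) in the CCE library and 56 counts (9.94 CPM) in the control library. Summed leukocyte markers (PTPRC, CD3E, CD68) stood at 0.803 CPM in the CCE library and 1.78 CPM in the control library, and the erythroid gene HBB at 8.60 CPM (CCE) and 7.28 CPM (control). Endothelial VWF and CDH5 summed to 0.0573 CPM (CCE) and 0 CPM (control), fibroblast DCN, LUM and PDGFRB to 0.975 CPM (CCE) and 0.355 CPM (control), and hepatocyte ALB had 0 counts in both.

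The metallothionein genes differed from each other in direction. In the CCE library MT1G stood higher than in the control library, MT1E, MT1X and MT1F stood lower, and MT2A, which carries most of the metallothionein counts, was lower by a smaller step. Of the other members, the sensor gene MTF1 and the exporter gene SLC30A1 were higher, and the importer gene SLC39A10 had an interval that included 1, though not with every scaling. These directions come from the raw counts. By the authors' FPKM values, MT2A, MT1X and SLC39A10 had the opposite sign.

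**Figure D1:**
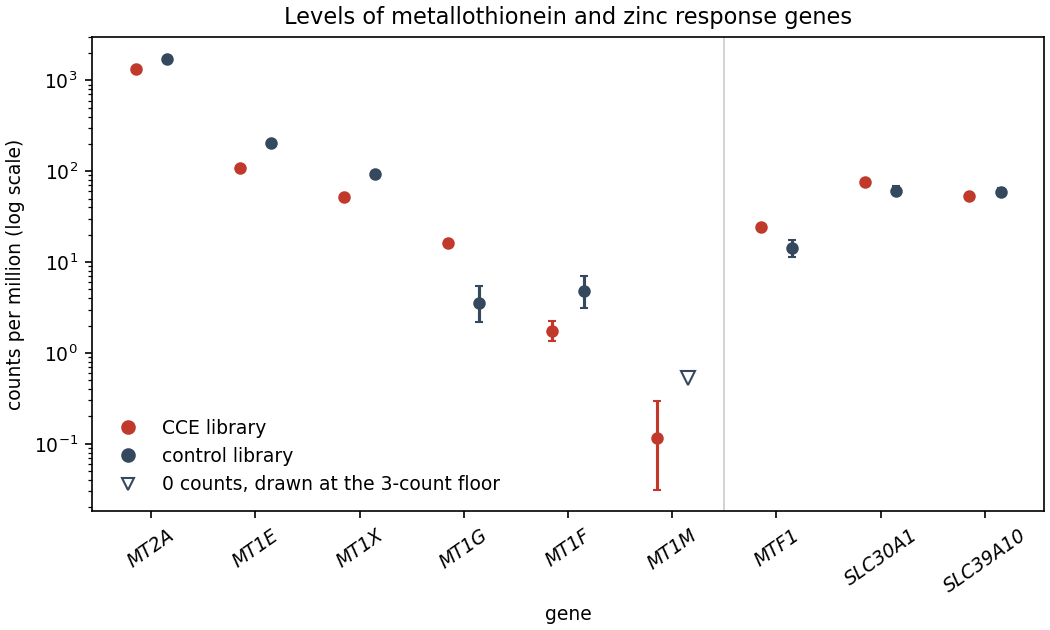
Level of each gene in CPM (log scale) in the CCE and control libraries, 1 library each, with exact 95% Poisson intervals of the count. MT2A stands highest in both libraries. MT1G is higher in the CCE library, MT1E, MT1X and MT1F are lower there, and MT1M has 4 counts in the CCE library and 0 in the control library, drawn as an open triangle at the 3-count floor.

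Of the 9 members, 8 had a mean of at least 1 CPM over the libraries and were called measured, and each of the 8 was above 1 CPM in both. Of the 8, MT1G was called at least 2-fold higher in the CCE library and MT1F at least 2-fold lower, a call that required the ratio to pass 2-fold and its interval to exclude 1. Over all 14423 measured genes, 4.86% (701 genes) were called higher by this rule and 4.52% (652 genes) lower. With upper-quartile scaling the calls over all genes were 527 higher and 781 lower, and MT1E joined MT1F among the lower ones. At 1.5-fold, 2 members (MT1G and MTF1) were higher and 3 (MT1E, MT1X and MT1F) lower, against 13.6% and 10.3% of all measured genes. The interval lay above 1 for 3 of the 8 and below 1 for 4, against 32.8% and 22.8% of all. Whether an interval excludes 1 depends on the count as well as the ratio, and these shares, here and below, were not matched for count. The median log2 ratio of the 8 was -0.24, against 0.09 over all measured genes.

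The isoform genes are near copies of each other, which may bear on how reads were divided between them. Coding sequences of the 4 MT1 genes whose ratios differ in direction are shown to make their likeness visible (GENCODE release 44 on GRCh37, chromosome 16, without the stop codon). MT1E is in lower case, and capitals in the others mark bases that differ from MT1E, or have no counterpart in it, in a pairwise alignment.
MT1E: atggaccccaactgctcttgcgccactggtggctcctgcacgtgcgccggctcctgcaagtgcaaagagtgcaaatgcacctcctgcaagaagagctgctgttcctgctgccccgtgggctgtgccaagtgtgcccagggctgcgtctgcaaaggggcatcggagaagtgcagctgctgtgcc
MT1G: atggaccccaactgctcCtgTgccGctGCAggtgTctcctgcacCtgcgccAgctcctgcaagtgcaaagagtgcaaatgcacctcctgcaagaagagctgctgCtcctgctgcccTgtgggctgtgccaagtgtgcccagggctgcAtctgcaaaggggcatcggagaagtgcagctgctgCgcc
MT1F: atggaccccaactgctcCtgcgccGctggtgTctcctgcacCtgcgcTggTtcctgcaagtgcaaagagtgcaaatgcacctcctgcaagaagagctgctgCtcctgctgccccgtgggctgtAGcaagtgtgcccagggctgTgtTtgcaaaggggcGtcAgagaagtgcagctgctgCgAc
MT1X: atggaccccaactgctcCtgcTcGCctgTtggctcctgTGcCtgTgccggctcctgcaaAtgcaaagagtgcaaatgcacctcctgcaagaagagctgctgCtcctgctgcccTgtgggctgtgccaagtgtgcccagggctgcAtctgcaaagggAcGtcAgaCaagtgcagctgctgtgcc
MT1G has 13 such bases, with the inserted GCA among them, MT1F 15 and MT1X 17. MT1G has 186 coding bases and the other 3 have 183 each. Over the 15 pairs of the 6 isoform genes, identity ran between 88.5% (MT1F and MT1X) and 93.5% (MT1G and MT2A).

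The promoters of 3 members are shown because they hold the motif that MTF1 binds. Each is the 250 bases before the annotated start, from RefSeq on GRCh38.p14, and 5 of the 9 members had a promoter in that table. Capitals mark the core of the metal response element, TGCACNC or TGCGCNC on either strand, where N is any base.
MT2A, chr16:56608334-56608583, plus strand: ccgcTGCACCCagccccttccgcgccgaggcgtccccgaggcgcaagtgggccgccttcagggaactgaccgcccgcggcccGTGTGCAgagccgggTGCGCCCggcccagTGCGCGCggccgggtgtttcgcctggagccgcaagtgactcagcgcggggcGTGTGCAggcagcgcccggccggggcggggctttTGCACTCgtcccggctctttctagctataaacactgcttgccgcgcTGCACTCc
MT1X, chr16:56682220-56682469, plus strand: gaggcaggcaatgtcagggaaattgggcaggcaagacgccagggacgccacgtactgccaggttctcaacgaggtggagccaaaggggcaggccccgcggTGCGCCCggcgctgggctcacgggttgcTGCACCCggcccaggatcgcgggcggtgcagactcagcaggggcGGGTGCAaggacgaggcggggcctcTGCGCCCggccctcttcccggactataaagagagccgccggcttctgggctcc
SLC30A1, chr1:211579162-211579411, minus strand: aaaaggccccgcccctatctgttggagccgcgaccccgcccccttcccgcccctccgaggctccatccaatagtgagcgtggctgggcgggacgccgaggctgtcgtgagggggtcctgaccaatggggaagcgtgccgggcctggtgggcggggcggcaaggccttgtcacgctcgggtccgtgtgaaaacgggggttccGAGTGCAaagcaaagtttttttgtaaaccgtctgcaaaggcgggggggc
MT2A had 7 matches, MT1X 4 and SLC30A1 1. MTF1 had 0, and so did each of the 2 windows of SLC39A10. Of all 35116 promoter windows of that length, 24.8% held at least 1 match, 0.370% at least 4 and 0.0313% at least 7. The antioxidant response element core TGACNNNGC, on either strand, matched once each in MT2A, MT1X and SLC30A1 with no overlap with a metal response element, against 10.9% of all windows with a match. MT1E, MT1F, MT1G and MT1M have no entry there. MT2A and MT1X, with 7 and 4 matches, were lower in the CCE library by counts, and SLC30A1, with 1, was higher. By the authors' FPKM values all 3 were higher there, with log2(FPKM + 1) differences of 0.71, 0.28 and 0.09. A link between the number of matches and the direction was not tested.

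MT2A, the metallothionein gene with the highest counts, had 46877 counts in the CCE library and 9668 in the control library. That was 1344 CPM (exact 95% Poisson interval 1332 to 1356) in the CCE library against 1716 CPM (1682 to 1751) in the control library. The intervals did not overlap, and the CCE level was 0.783 times the control level (0.766 to 0.800), a log2 ratio of -0.35. Of all measured genes, 20.7% had a lower ratio.

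MT1E, a metallothionein 1 isoform gene, had 3749 counts and 107 CPM in the CCE library against 1155 counts and 205 CPM in the control library. Its CCE level was 0.524 times the control level (0.491 to 0.560), a log2 ratio of -0.93, below all but 5.55% of measured genes. MT1X, another isoform gene, had 1795 counts and 51.5 CPM in the CCE library against 519 counts and 92.1 CPM in the control library, 0.559 times the control level (0.506 to 0.617). These isoforms were next after MT2A in both libraries, and both stood at little more than 0.5 of their control level by counts.

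MT1F had 61 counts and 1.75 CPM (1.34 to 2.25) in the CCE library against 27 counts and 4.79 CPM (3.16 to 6.97) in the control library. Its ratio of 0.365 (0.228 to 0.597) was the lowest of the 8, at a log2 ratio of -1.45, rank 266 from the lowest among the 14423 measured genes. MT1F is a low-level gene in both libraries, and its interval spans values on either side of a 2-fold difference.

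MT1G, the gene that went the other way, had 561 counts and 16.1 CPM (14.8 to 17.5) in the CCE library against 20 counts and 3.55 CPM (2.17 to 5.48) in the control library. It was 4.53-fold higher (2.90 to 7.47), a log2 ratio of 2.18, and ranked 106 from the top among the 14423 measured genes. The 20 control counts set the width of that interval. MT1M, a further isoform gene, had 4 counts in the CCE library (0.115 CPM) and 0 in the control library. The control count was below the floor of 3 counts (0.533 CPM in that library), so no ratio is given.

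Summed over the 6 metallothionein members, the CCE library held 53047 counts (1521 CPM) and the control library 11389 (2022 CPM). By counts the sum was 0.752 times the control level (0.737 to 0.768). By the authors' FPKM values the direction turned, with a sum of 1017 FPKM in the CCE library and 853 FPKM in the control library. By counts, MT2A made up 88.4% of the sum in the CCE library (Clopper-Pearson 88.1 to 88.6%) and 84.9% in the control library (84.2 to 85.5%). MT1E made up 7.07% (6.85 to 7.29%) in the CCE library and 10.1% (9.59 to 10.7%) in the control library. MT1X made up 3.38% (3.23 to 3.54%) in the CCE library and 4.56% (4.18 to 4.96%) in the control library. The share of MT1G was 1.06% (0.972 to 1.15%) in the CCE library and 0.176% (0.107 to 0.271%) in the control library, and that of MT1F was 0.115% in the CCE library and 0.237% in the control library. The make-up of the metallothionein counts therefore differed between the libraries beyond counting error, with MT2A and MT1G taking larger shares and MT1E and MT1X smaller ones in the CCE library. Any effect on these shares of how reads were divided between near copies was not tested. By the authors' FPKM values MT2A, MT1G and MT1X were higher in the CCE library and MT1E and MT1F lower, and shares were not computed.

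Levels of different genes were compared per length, as CPM per kb of merged annotated exons. In the CCE library the order was MT2A (1470 CPM per kb), MT1E (102), MT1X (29.8), MT1G (21.4), SLC30A1 (13.0), SLC39A10 (7.82), MTF1 (3.08), MT1F (0.944) and MT1M (0.224), and no neighbours in that order had overlapping Poisson intervals. In the control library it was MT2A (1878 CPM per kb), MT1E (195), MT1X (53.3), SLC30A1 (10.4), SLC39A10 (8.57), MT1G (4.73), MT1F (2.59), MTF1 (1.78) and MT1M (0). There the intervals of SLC30A1 and SLC39A10 overlapped, as did those of MT1G and MT1F and those of MT1F and MTF1. MT1G was in place 4 in the CCE library and place 6 in the control library. Per length of 1 representative transcript, the first 3 places were taken by the same genes in both libraries, and MT1G was in place 4 in the CCE library and place 7 in the control library. These places come from counts, and the authors' FPKM values placed MT1G lower in the CCE library. There it had 2.01 FPKM, below SLC30A1 (10.7), SLC39A10 (7.35), MT1F (2.58) and MTF1 (2.48). The cause of that difference was not tested.

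In transcripts of other annotated genes, 5.34% of the 50-base windows of the MT1E transcript were also found, 6.12% of those of MT1F, 11.1% of MT2A, 14.6% of MT1M, 19.9% of MT1G and 51.0% of MT1X. With 100-base windows this was 0% for all but MT1X, at 22.0%. MT1X shares 321 exonic bases with a lncRNA (ENSG00000259827) on the same strand, and this lncRNA was listed with 0 counts in both libraries. All 67 shared 100-base windows of MT1X were shared with this lncRNA and with no metallothionein gene. The lncRNA also held 117 of the 181 shared 50-base windows of MT1X. The read length is not given in the labels. Records that aligned to more than 1 place made up 17.3% of the CCE library's records and 11.6% of the control library's, and their part in the isoform ratios was not tested.

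**Figure D2:**
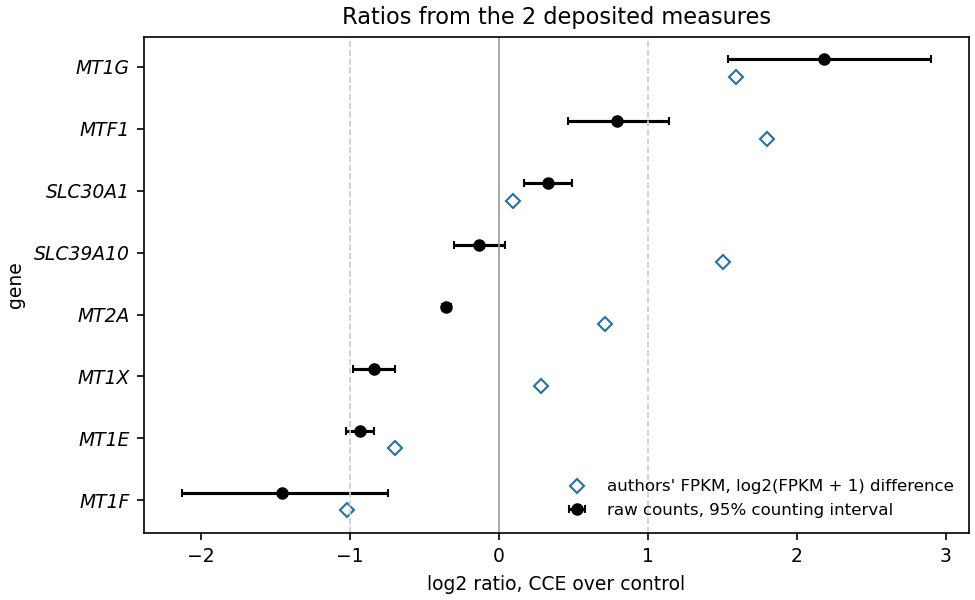
Log2 ratio of CCE over control for the 8 measured members from raw counts (points, bars are 95% counting intervals) and from the authors' FPKM as a log2(FPKM + 1) difference (diamonds). MT1G, MTF1 and SLC30A1 are above 0 and MT1E and MT1F below 0 by both, while MT2A, MT1X and SLC39A10 change sides; dashed lines mark 2-fold.

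The authors' FPKM values, summed per gene, gave the same sign as the counts for 5 of the 8 members. MT1E had 211 FPKM in the CCE library against 343 FPKM in the control library, and MT1F 2.58 FPKM (CCE) against 6.25 FPKM (control). MT1G had 2.01 FPKM in the CCE library and was listed at 0 in the control library, as was MTF1 (2.48 FPKM in the CCE library) despite 80 control counts. The sign differed for MT2A, with 733 FPKM in the CCE library against 448 FPKM in the control library, a log2(FPKM + 1) difference of 0.71. It also differed for MT1X, with 68.5 FPKM (CCE) against 56.3 FPKM (control), and for SLC39A10, with 7.35 FPKM (CCE) against 1.94 FPKM (control).

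MT2P1, a processed pseudogene copy of MT2A on chromosome 4, was listed at 0 FPKM in the CCE library against 90.0 FPKM in the control library. By counts it had 476 counts (13.6 CPM) in the CCE library and 64 counts (11.4 CPM) in the control library. Summing MT2A and MT2P1 gave a log2(FPKM + 1) difference of 0.45, still above 0, and a log2 count ratio of -0.35. The direction of MT2A therefore depended on which of the deposited measures was read.

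The 6 isoform genes lie in 1 cluster on chromosome 16. From MT4 to MT1X it runs from 56598985 to 56718108 (GRCh37), 119 kb that hold 17 IDs of the count tables, 15 of them metallothionein genes or pseudogenes. MT1G (56700642 to 56701977) is on the minus strand and the other 5 members are on the plus strand, with MT2A at 56642496 to 56643409, MT1E at 56659387 to 56661024, MT1M at 56666571 to 56667893, MT1F at 56691643 to 56694610 and MT1X at 56716382 to 56718108. MT1F and MT1G are next to each other among the protein-coding genes and had the lowest and the highest ratio of the members. MT1A, the only other gene of the cluster at a mean of at least 1 CPM, had 52 counts (1.49 CPM) in the CCE library and 12 counts (2.13 CPM) in the control library, with an interval of the log2 ratio from -1.44 to 0.53. MT1B and MT4 had 0 counts in both libraries, and MT3 and MT1H had 1 and 2 counts in the CCE library and 0 in the control library.

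**Figure D3:**
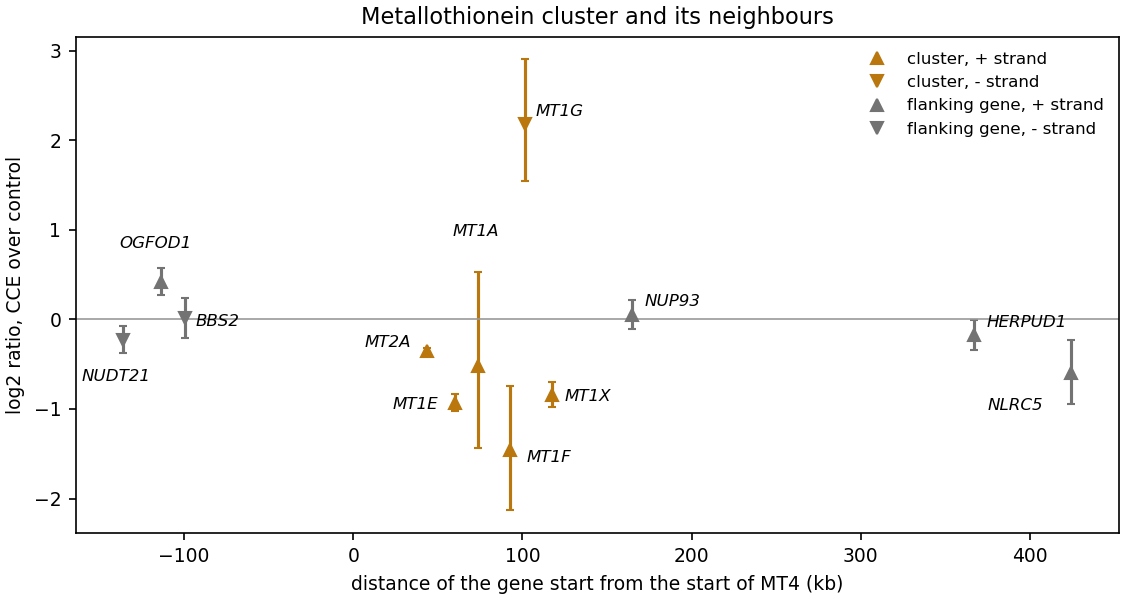
Log2 ratio of CCE over control, with 95% counting intervals, against the distance of each gene's start from the start of MT4 in kb, for measured genes of the metallothionein cluster and 6 measured protein-coding genes from its flanks. MT1G stands at 2.18 between MT1F at -1.45 and MT1X at -0.84, and these flanking genes lie between -0.60 and 0.42.

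Of the 6 measured flanking genes given here, 0 were called at least 2-fold, against 4.86% higher and 4.52% lower of all measured genes. With shares that low, 0 of 6 does not set these genes apart from genes at large. OGFOD1 was 1.34-fold higher in the CCE library. The innate immune regulator gene NLRC5 stood at 0.662 of its control level. NUDT21, BBS2, NUP93 and HERPUD1 had log2 ratios from -0.23 to 0.05. GNAO1, SLC12A3 and CETP, also beside the cluster, were under the mean of 1 CPM.

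MTF1, the zinc-sensing transcription factor gene on chromosome 1 (38275246 to 38325264), had 859 counts and 24.6 CPM (23.0 to 26.3) in the CCE library against 80 counts and 14.2 CPM (11.3 to 17.7) in the control library. The intervals did not overlap. MTF1 was 1.73-fold higher in the CCE library (1.38 to 2.21), a log2 ratio of 0.79, above 90.6% of measured genes.

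SLC30A1, the zinc exporter gene on chromosome 1 (211744910 to 211752503), had 2681 counts and 76.9 CPM (74.0 to 79.8) in the CCE library against 345 counts and 61.2 CPM (54.9 to 68.1) in the control library. It was 1.25-fold higher (1.12 to 1.41), a log2 ratio of 0.33. With measured protein-coding genes split into 10 equal bins of GC content, the median of its bin was 0.20. Its log2 ratio less that median was 0.13, below its interval of 0.17 to 0.49. SLC39A10, the importer gene on chromosome 2 (196440701 to 196602426), had 1886 counts and 54.1 CPM (51.7 to 56.6) in the CCE library against 334 counts and 59.3 CPM (53.1 to 66.0) in the control library. These intervals overlapped, and its ratio of 0.912 had an interval of 0.811 to 1.03. The log2 ratio of -0.13 had an interval below 0 with DESeq2 size factors (-0.344 to -0.0028) and with upper-quartile scaling (-0.38 to -0.043). SLC39A10 is in the bin with the lowest GC content, where the median log2 ratio was 0.20, and its own ratio less that median was -0.34.

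The metallothionein genes are short and of higher GC content. All 5 measured ones are in the bin with the shortest merged exons, of 10 equal bins by length, where the median log2 ratio was -0.04. Their GC content was 53.2 to 58.2%, in bins with medians of 0.05, 0.00 and -0.05. Less these GC medians, the ratios of MT1G, MT1E, MT1X and MT1F were 2.18, -0.98, -0.89 and -1.41.

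The wider zinc transporter families were set beside SLC30A1 and SLC39A10. Most, though not all, proteins of the SLC30 exporter family move zinc out of the cytosol. All 6 measured genes of the 10 in the family had a log2 ratio above 0 by counts, with a median of 0.44, against 8191 of all 14423 measured genes above 0 and a median of 0.09. The interval lay above 1 for 5 of the 6, against 32.8% of all genes. These 5 had means of 54.0 to 87.1 CPM, and the share over all genes, from 1 CPM up, was not matched for level. SLC30A6 and SLC30A5 passed 1.5-fold, against 13.6% of all, and SLC30A6 passed 2-fold, against 4.86%. Less the median of their GC bins, 5 of the 6 stayed above 0, with a median of 0.24, and SLC30A4 stood at -0.14. SLC30A6, which forms a secretory pathway zinc transporter with SLC30A5, had 2583 counts (74.0 CPM) in the CCE library and 191 counts (33.9 CPM) in the control library, 2.18-fold higher. Its partner SLC30A5 was 1.57-fold higher (CCE 85.7 CPM, control 54.7 CPM). SLC30A7, of the same compartment, was 1.46-fold higher (CCE 70.4 CPM, control 48.1 CPM) but had a log2(FPKM + 1) difference of -3.53. SLC30A9, with a log2 count ratio of 0.32, also had the opposite sign by FPKM, at -0.06.

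**Figure D4:**
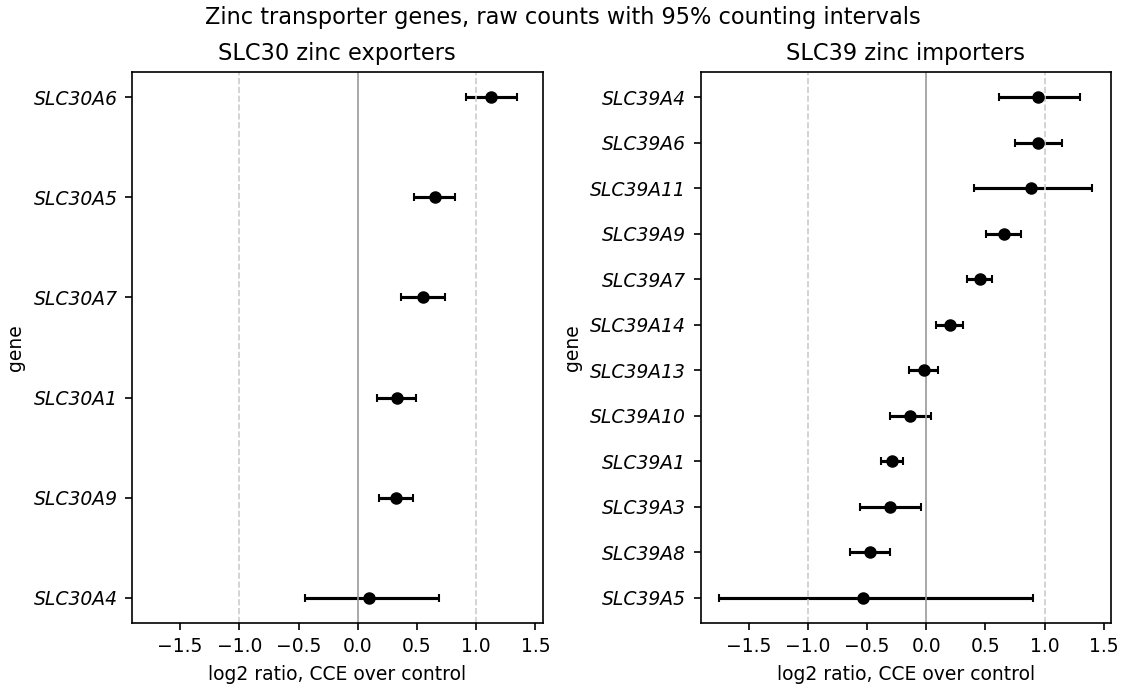
Log2 ratio of CCE over control from raw counts, with 95% counting intervals, for the measured zinc exporter genes of the SLC30 family (left) and zinc importer genes of the SLC39 family (right); dashed lines mark 2-fold. The 6 exporter genes lie above 0 by counts, with no GC centring, and the 12 importer genes lie between -0.53 and 0.95.

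Importers of the SLC39 family move zinc into the cytosol, and they went both ways. Of 12 measured of 14, 6 had an interval above 1, against 32.8% of all measured genes, 3 below 1, against 22.8%, and 3 including 1. The median log2 ratio was 0.09, the same as over all genes to 2 decimals. At 1.5-fold, 4 were higher, against 13.6% of all, and 0 lower, against 10.3%. SLC39A4, the importer of dietary zinc uptake, was 1.93-fold higher (27.0 CPM in the CCE library and 14.0 CPM in the control library). SLC39A6, an estrogen-regulated importer gene of breast cells, was 1.92-fold higher (CCE 77.1 CPM, control 40.1 CPM), SLC39A11 1.84-fold (CCE 12.4 CPM, control 6.75 CPM) and SLC39A9 1.57-fold (CCE 117 CPM, control 74.7 CPM). The 3 with an interval below 1, named after their values were seen, were SLC39A8 (log2 ratio -0.48), SLC39A3 (-0.31) and SLC39A1 (-0.29). SLC39A4 and SLC39A9 overlap a gene on the opposite strand, as do SLC39A1 and SLC30A5, and the strand setting of the counting is not stated. SLC39A3 and SLC39A8 share exonic bases with another gene on the same strand.

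Metallothioneins also bind copper, and genes of copper handling were read for that reason. Of 14 measured of 16, 1 was at least 2-fold higher, against 4.86% of all measured genes, 3 passed 1.5-fold upward, against 13.6%, and 0 downward, against 10.3%. The interval lay above 1 for 5 (32.8% of all), below 1 for 1 (22.8% of all) and included 1 for 8, with a median log2 ratio of 0.15. The 1 below was STEAP3, a metalloreductase gene named after its value was seen, at 68.3 CPM in the CCE library and 96.6 CPM in the control library (0.708 times, 0.645 to 0.778). SLC31A1, the gene of the CTR1 copper importer, had 7171 counts (206 CPM) in the CCE library and 508 counts (90.2 CPM) in the control library, 2.28-fold higher, but a log2(FPKM + 1) difference of -0.94. COX17, a copper chaperone of mitochondria, was 1.96-fold higher and ATP7A, a copper-exporting pump gene, 1.91-fold higher, and both share exonic bases with a neighbouring gene on the same strand. SOD1, the gene of the copper and zinc superoxide dismutase, was 1.43-fold higher (CCE 356 CPM, control 249 CPM).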

How the data were processed

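Human MDA-MB-231 cells were measured by RNA-seq, 1 CCE and 1 control library. Per the submitters' processing notes, HISAT2 was used with hg19, and GRCh37 is listed too. No source used here names the counting program, its strand setting, the annotation release or the FPKM program. The authors deposited raw counts per Ensembl gene, whose 5 closing rows name no gene (66.8% of the CCE library's records and 62.9% of the control's) and were left out, and FPKM values in 215170 rows per library with repeated gene IDs, summed per gene here. FPKM values carry no depth of their own here.

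Symbols, exons and coordinates came from GENCODE release 44 on GRCh37 (55665 of 63677 IDs matched; 72 of 74 list genes). Counts were scaled to the total on genes, and ratios had no pseudocount. Intervals were exact 95% Clopper-Pearson or Poisson (Python 3.11.15 with scipy 1.17.1, tables with pandas 2.3.3, figures with matplotlib 3.10.9). The ratio intervals were checked on simulated Poisson counts, the model they assume, so that check could not test spread beyond counting error. No ratio was printed for a gene at or below a floor of 3 counts in either library, and calls over all genes used no such floor. Alternatives were TMM and upper-quartile scaling (edgeR 4.0.16, R 4.3.3), DESeq2 1.42.0 size factors, totals without the mitochondrial genome, FPKM with pseudocounts of 1 and 0.1, no filter or a mean of 5 CPM, 1.5-fold and 99% intervals. Centring by GC or length, the sum with MT2P1 and the transcript lengths were added after seeing the data. Members and lists were chosen with earlier results of these data known. Besides the 9 members, the text names from each list up to 4 genes farthest from a log2 ratio of 0 and those called at least 2-fold. It also names the flanking genes, other metallothionein genes of the cluster, MT2P1, and others said to be chosen after their values were seen. SLC30A4 and SLC30A9 fall outside these rules and were also named after their values were seen. A planned comparison of protein sequences was not run, and 1 further flanking gene and 1 further marker gene were left out of all tables and are not reported here.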

Additional observations from a re-analysis of the deposited data

How the results depend on the processing

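Scaling moved each member's log2 ratio by the same step, -0.04 with TMM, with DESeq2 size factors and without mitochondrial genome counts, and -0.08 with upper-quartile scaling, and turned the sign of 0 of the 8 members, but the interval of SLC39A10 lay wholly below 0 with DESeq2 and upper-quartile scaling. The summed metallothionein log2 ratio of -0.41 was -0.45 under the first 3 and -0.49 under the last, and 0.25 by the authors' FPKM. By FPKM, MT2A and MT1X turned to 0.71 and 0.28 with either pseudocount, and MT2A summed with MT2P1 to 0.45; the cause was not tested. Calls of at least 2-fold over all genes (701 higher, 652 lower) were 326 and 290 when the mean had to reach 5 CPM, where MT1F was not tested and 0 members were called lower. They were 1964 and 1488 at 1.5-fold, and 882 and 1009 with no filter. FPKM values have no counting interval, so a call by FPKM needed the 2-fold difference alone, a looser rule. It gave 2081 higher and 2002 lower with a pseudocount of 1, and 3137 and 2625 with 0.1. Members called higher were 2 at 1.5-fold and, by that looser rule, 3 by FPKM (MT1G, MTF1 and SLC39A10). Members called lower were 2 with upper-quartile scaling and 3 at 1.5-fold. Over the alternatives run, the SLC30 median (0.44) ran between 0.19 (FPKM, pseudocount 1) and 0.90 (FPKM, 0.1), the SLC39 median (0.09) between 0.0064 (upper quartile) and 0.53 (FPKM, 0.1), the copper median (0.15) between 0.07 and 0.22, and the glucocorticoid median (-0.16) between -0.27 (GC-centred) and 0.03 (no filter). The 20 control counts of MT1G and 27 of MT1F limit those ratios. No paired analysis was possible because each group has 1 library.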

Other observations

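Glucocorticoids are known inducers of metallothionein genes, and genes of the glucocorticoid response were read beside them. Of 10 measured of 12, 4 were at least 1.5-fold lower in the CCE library (10.3% of all measured genes), 1 of them at least 2-fold (4.52% of all), and 1 was at least 1.5-fold higher (13.6% of all), with a median log2 ratio of -0.16. CEBPD, a transcription factor gene, had 307 counts (8.80 CPM) in the CCE library and 174 counts (30.9 CPM) in the control library, a log2 ratio of -1.81 (-2.08 to -1.53). The kinase gene SGK1 had 6.85 CPM in the CCE library and 13.3 CPM in the control library (log2 ratio -0.96, but 0.66 by log2(FPKM + 1)), and the growth arrest gene GADD45A 29.3 CPM (CCE) and 50.1 CPM (control), a log2 ratio of -0.77. ERRFI1, which encodes a feedback inhibitor of EGFR, was 1.79-fold higher (CCE 441 CPM, control 246 CPM), with a log2(FPKM + 1) difference of -0.17. The glucocorticoid receptor gene NR3C1 had 122 CPM (CCE) and 112 CPM (control), and FKBP5, a widely used target, 36.0 CPM (CCE) and 33.9 CPM (control); both were named after their values were seen.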
